A study of Mus musculus with 12 samples.

Results

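The SLC25 genes encode the mitochondrial carriers, the largest family of transport proteins of the mitochondrial inner membrane. They were chosen by symbol, as every row of the count table named Slc25a followed by a number, and 47 of the 23420 genes in the table met this rule. Of these 47 members, 42 had enough counts to be tested (15306 genes did in all), and Slc25a2, Slc25a21, Slc25a31, Slc25a41 and Slc25a54 did not. The libraries came from inguinal white adipose tissue (iWAT), a subcutaneous depot in which cold induces beige adipocytes, of male C57BL/6 mice aged 10 weeks, and RNA-seq counts were compared between 4 groups of 3. Mice were kept at thermoneutrality (TN, 30 °C) for 1 week or in cold (4 to 6 °C) for 3 days. WT mice were HIF2a loxP/loxP without Cre, and HIF2α AKO mice were Adipoq-Cre HIF2a loxP/loxP, so that the mice of all groups carried the floxed allele and the Cre, driven by the adiponectin promoter, acts in adipocytes and leaves other cells of the tissue with the gene. The labels number the libraries 1 to 3 in each group and do not say that each was 1 mouse, so that p-values measure the spread between these libraries. They are called mice here.

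Carriers share a fold of repeated membrane helices and most exchange substrates across the inner membrane, so that they set which metabolites, nucleotides and cofactors reach the matrix enzymes. Citrate leaves the matrix through Slc25a1 for fatty acid synthesis, acylcarnitines enter through Slc25a20 for β-oxidation, and ADP, ATP and phosphate pass through Slc25a4, Slc25a5 and Slc25a3 for oxidative phosphorylation. Ucp1, which dissipates the proton gradient of thermogenic fat, has the same fold but another symbol and is not a member by the rule. Bulk RNA cannot tell a change in the number of cells of a type from a change in RNA per cell.

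Libraries held 22368316 to 35204631 counts in genes. Epas1, the gene of HIF2α, stood at 373, 278 and 430.0 CPM (counts scaled to a common library size) in TN WT, 289, 394 and 360.1 in TN HIF2α AKO, 576, 562 and 743 in cold WT and 986, 743 and 749 in cold HIF2α AKO. In cold the lowest mouse labelled HIF2α AKO (743.2 CPM) was about level with the highest WT mouse (742.8 CPM). The study reported lower Hif2a mRNA in adipose tissue of its knockouts. The counts given here, over the whole gene, do not show the deletion, and directions between genotypes rest on the labels. The 12 skeletal muscle markers summed to 1660 CPM in mouse 2 of TN HIF2α AKO and to 1361 CPM in mouse 1 of cold HIF2α AKO, against 16.4 to 113 CPM in the others, and the 10 epithelial markers to 297 CPM in mouse 3 of TN WT, against 4.21 to 13.2 CPM in the others. The 10 adipocyte markers, all detected, summed to 16228 to 32589.6 CPM in TN WT, 22899 to 39577 in TN HIF2α AKO, 30959 to 63952 in cold WT and 37184 to 43112 in cold HIF2α AKO. The 10 fibroblast and preadipocyte markers summed to less in every cold mouse (3547 to 5036 CPM) than in every TN mouse (5903 to 7889 CPM), and the 8 of 10 lymphocyte markers in the table summed to 1023 to 1706 CPM at TN and 588 to 1033 CPM in cold.

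The sequences upstream of the 4 members with the largest rises in cold WT are shown, so that the largest changes stand beside their sequence. RefSeq (GRCm38.p6) gave a promoter for 36 of the 47 members. The 250 bases before the RefSeq start are printed 5′ to 3′ on the strand of the gene, and capitals mark AAGGTCA, the letters recognised by several nuclear receptors of metabolic genes, and ACGTG, a form of the core of the hypoxia response element, on either strand (TGACCTT and CACGT are their reverses). By the GENCODE start the last 48 of these bases of Slc25a20, 24 of Slc25a42 and 10 of Slc25a33 lie inside the gene, and the 48 of Slc25a20 are not printed. Slc25a34 lies at chr4:141618824-141623821 on the minus strand, Slc25a20 at chr9:108662088-108684641 on the plus strand, Slc25a42 at chr8:70184340-70212305 on the minus strand and Slc25a33 at chr4:149744036-149774277 on the minus strand (GENCODE M21, GRCm38, all protein coding).
Slc25a34 (chr4:141623835-141624084, minus strand): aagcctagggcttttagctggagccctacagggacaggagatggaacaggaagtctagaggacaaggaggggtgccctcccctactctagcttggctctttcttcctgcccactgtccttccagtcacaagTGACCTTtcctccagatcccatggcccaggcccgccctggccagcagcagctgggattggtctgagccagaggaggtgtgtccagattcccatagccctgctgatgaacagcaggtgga
Slc25a20 (chr9:108661886-108662087, plus strand): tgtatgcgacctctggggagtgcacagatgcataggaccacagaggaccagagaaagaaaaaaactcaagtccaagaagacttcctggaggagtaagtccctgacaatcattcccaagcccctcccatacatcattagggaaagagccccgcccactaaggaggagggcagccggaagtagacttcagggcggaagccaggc
Slc25a42 (chr8:70212282-70212531, minus strand): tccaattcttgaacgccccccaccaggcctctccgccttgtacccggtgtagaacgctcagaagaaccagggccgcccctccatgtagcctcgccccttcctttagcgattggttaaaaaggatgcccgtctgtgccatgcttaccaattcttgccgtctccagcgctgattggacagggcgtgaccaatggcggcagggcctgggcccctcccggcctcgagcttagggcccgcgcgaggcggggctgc
Slc25a33 (chr4:149774268-149774517, minus strand): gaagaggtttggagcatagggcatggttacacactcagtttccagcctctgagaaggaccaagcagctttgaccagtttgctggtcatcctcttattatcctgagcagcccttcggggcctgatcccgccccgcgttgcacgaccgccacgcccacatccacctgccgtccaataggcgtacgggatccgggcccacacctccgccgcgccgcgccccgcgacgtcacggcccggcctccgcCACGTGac

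Slc25a34 carried TGACCTT from base 119 before its start and was, of the 36 matched members, the one with AAGGTCA on either strand in its window of 250 bases before and 50 after the start, a sequence that 4.72% of all 32851 such windows held. Slc25a33 carried CACGTG from base 8 before its start, in which ACGTG and its reverse overlap, and these letters lie inside the gene by the GENCODE start. ACGTG or its reverse was found in 13 of the 46 windows of these members (28.3%), which belong to 12 members, and in 19.6% of all windows. None of these letters was found in the printed bases of Slc25a20 and Slc25a42, and other forms of the core were not searched. A match is a description of letters and not a site of binding.

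In cold WT against TN WT, 20 of the 42 tested members were higher and 0 were lower at an adjusted p under 0.05 (quasi-likelihood test of edgeR, adjusted over all 15306 genes by Benjamini-Hochberg). Among all tested genes 15.6% were called higher and 5.68% lower. At an unadjusted p under 0.05, 23 members were higher and 4 lower by edgeR, beside 22.6% and 16.3% of all genes. DESeq2 called 22 higher and 2 lower at an adjusted p under 0.05, beside 18.9% and 11.6% of all genes, the lower members being Slc25a24 and Slc25a45. The median log2 fold change was 0.73 over the members and -0.03 over all tested genes, and 31 of the 42 were fitted higher. In cold HIF2α AKO against TN HIF2α AKO, 21 members were higher and 3 were lower, beside 15.6% of all tested genes called higher and 11.5% called lower, and the medians were 0.67 over the members and -0.05 over all genes. In WT the cold and TN mice did not overlap for 24 members higher and 3 lower, beside 3479 and 2949 of all 15306 tested genes. In HIF2α AKO these were 24 and 6 members, beside 3813 and 3915 of all tested genes. A lack of overlap between cold and TN was thus common among all genes. The WT and HIF2α AKO comparisons share no mice, but both come from the fit of all libraries and share its estimate of the spread. Of the members called higher, 19 were called in both, which is 95% of those called in WT and 90.5% of those called in HIF2α AKO. Slc25a26 was called in WT alone and Slc25a28 and Slc25a48 in HIF2α AKO alone, and the difference between the genotypes is given further on. The fitted change had the same sign in both genotypes for 41 of the 42 members. The shares of all tested genes called in both genotypes, or fitted with the same sign, are not given. This overlap is therefore not shown to be particular to the members.

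Some calls for the smaller rises were lost when 1 mouse was left out, while that of Slc25a3 was kept in every fit of both genotypes. Without mouse 2 of TN WT or without mouse 3 of cold WT 14 members were called higher in WT, and without mouse 1 of cold HIF2α AKO 15 were called higher and 0 lower in HIF2α AKO. Without mouse 1 of TN HIF2α AKO these were 16 and 0, and without mouse 3 of cold HIF2α AKO 19 and 1. Leaving out the 3 mice with muscle or epithelial transcripts, which was chosen after seeing the data, gave 23 higher and 0 lower in WT and 17 higher and 0 lower in HIF2α AKO. Over the 21 fits of each comparison, 14 members were called higher every time in WT and 15 in HIF2α AKO. For the fits that left out mice the share of all genes called is not given, so the losses are not shown to be particular to the members.

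**Figure D1:**
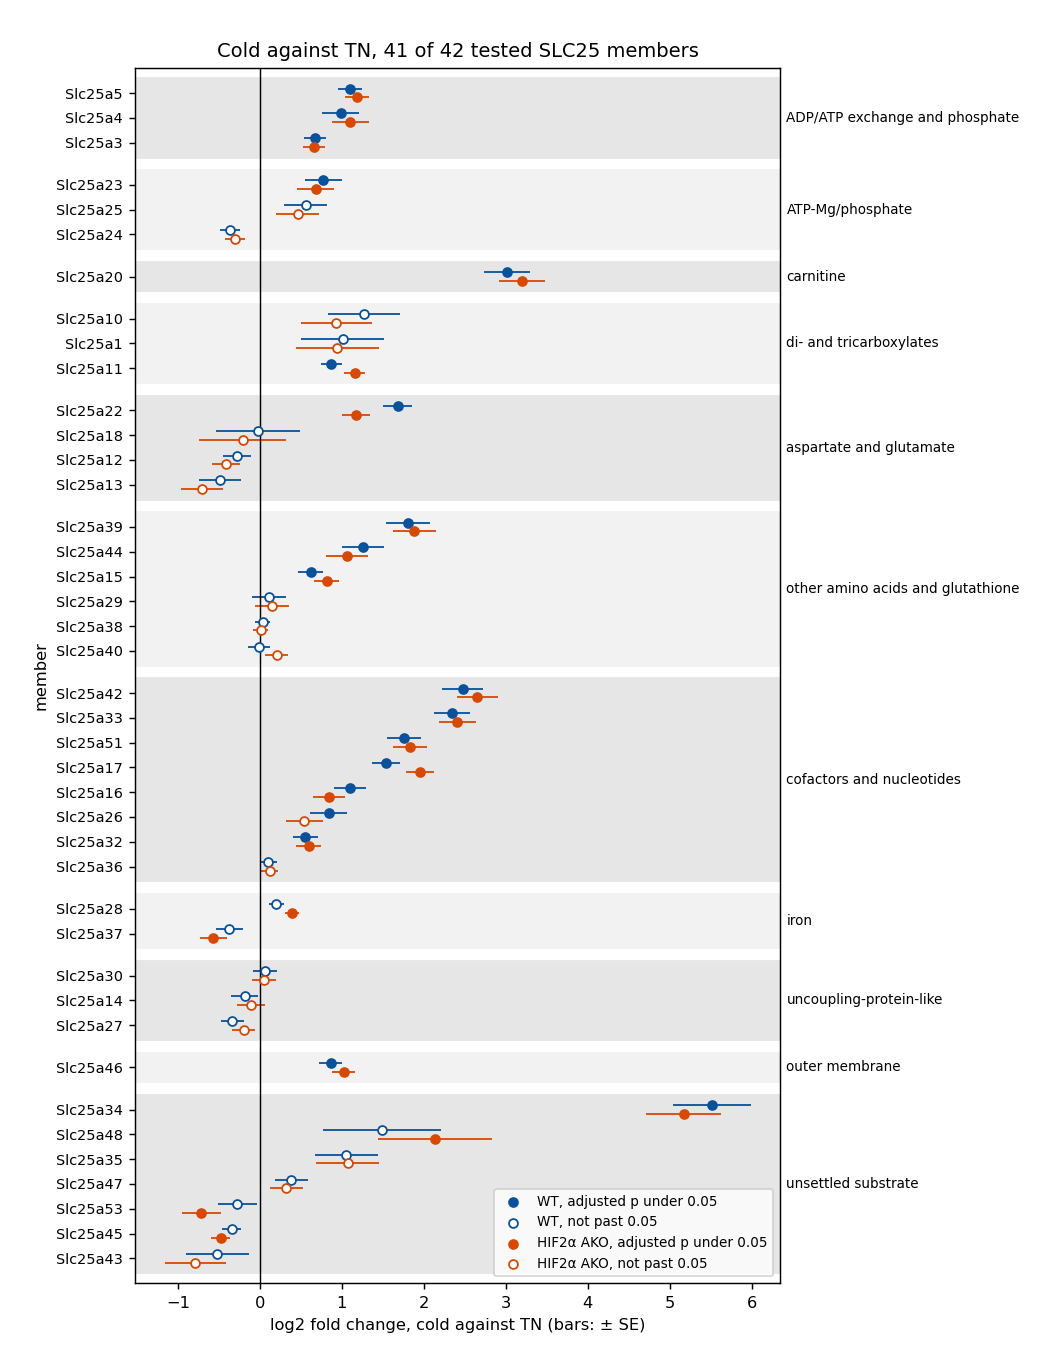
Log2 fold change in cold against TN (horizontal axis, bars are SE) for 41 of the 42 tested members (vertical axis), grouped by substrate, in WT (blue) and HIF2α AKO (orange), with filled points for an adjusted p under 0.05. Slc25a34 lies farthest to the right at 5.51 in WT and 5.17 in HIF2α AKO, and the members of the uncoupling-protein-like group lie near 0.

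Carriers of adenine nucleotides and phosphate rose together. All 3 tested members of this group, Slc25a3, Slc25a4 and Slc25a5, were called higher in both genotypes, with medians of 0.99 in WT and 1.10 in HIF2α AKO on the log2 scale. Slc25a5 stood at 330.4, 289 and 350.3 CPM in TN WT, 312, 391 and 360.0 in TN HIF2α AKO, 728, 631 and 722 in cold WT and 951, 696 and 764 in cold HIF2α AKO. Each cold mouse lay above each TN mouse for Slc25a5, which encodes the ADP/ATP carrier ANT2. Slc25a5 was fitted at 1.10 ± 0.15 (SE) in cold against TN in WT (adjusted p = 0.00108) and at 1.18 ± 0.15 (SE) in HIF2α AKO (adjusted p = 0.000481) on the log2 scale, by edgeR. Slc25a4 stood at 158, 124 and 186 CPM in TN WT, 126, 207 and 169 in TN HIF2α AKO, 275, 286 and 365 in cold WT and 449.6, 305 and 322 in cold HIF2α AKO. The cold and TN groups did not overlap for Slc25a4, which encodes ANT1, the ADP/ATP carrier of heart and muscle, and mouse 1 of cold HIF2α AKO, in which muscle markers were high, was the highest at 449.6 CPM. Slc25a4 was fitted at 0.99 ± 0.22 (SE) in cold against TN in WT (adjusted p = 0.0119) and at 1.10 ± 0.22 (SE) in HIF2α AKO (adjusted p = 0.00619) on the log2 scale, by edgeR. The call in WT was lost without mouse 2 of TN WT or mouse 3 of cold WT, where its adjusted p reached at most 0.0567. Slc25a3 stood at 318, 283 and 379 CPM in TN WT, 303, 357 and 339.9 in TN HIF2α AKO, 512, 474 and 581 in cold WT and 578, 493 and 509 in cold HIF2α AKO. Slc25a3, which encodes the phosphate carrier, was higher in each cold mouse than in each TN mouse. Slc25a3 was fitted at 0.68 ± 0.14 (SE) in cold against TN in WT (adjusted p = 0.0073) and at 0.66 ± 0.14 (SE) in HIF2α AKO (adjusted p = 0.00698) on the log2 scale, by edgeR. Slc25a31 was at 0.0764, 0.0685 and 0.0341 CPM in TN WT, 0.156, 0.0628 and 0.106 in TN HIF2α AKO, 0.0447, 0.0427 and 0.0805 in cold WT and 0.0968, 0.281 and 0.361 in cold HIF2α AKO. Slc25a31, the ADP/ATP carrier of the testis, had 1 to 9 counts per library and was not tested.

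The calcium-regulated ATP-Mg/phosphate carriers, which adjust the adenine nucleotide content of the matrix, did not move together. Slc25a23 was called higher in both genotypes, at 0.78 ± 0.23 (SE) in WT (adjusted p = 0.0339) and 0.68 ± 0.23 (SE) in HIF2α AKO (adjusted p = 0.0459) by edgeR, and was the least stable of the called rises. In WT its call was lost without mouse 1 or 2 of TN WT, mouse 3 of TN HIF2α AKO, mouse 1 or 3 of cold WT or mouse 2 of cold HIF2α AKO, and in HIF2α AKO without mouse 1 of TN WT, mouse 1 or 3 of TN HIF2α AKO, mouse 1 of cold WT or any mouse of cold HIF2α AKO. Slc25a25 was fitted at 0.56 ± 0.26 (SE) in WT (adjusted p = 0.138) and 0.46 ± 0.26 (SE) in HIF2α AKO (adjusted p = 0.199) by edgeR and was not called. Slc25a24 was fitted at -0.36 ± 0.12 (SE) in WT (adjusted p = 0.0534) and -0.31 ± 0.12 (SE) in HIF2α AKO (adjusted p = 0.078), by edgeR, with each cold mouse below each TN mouse of its genotype. It was not called and was called lower by DESeq2 in WT. Slc25a41 and Slc25a54, of the same group, had at most 1 count in any library.

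Slc25a20, the carnitine/acylcarnitine carrier that brings long-chain acylcarnitines into the matrix, had the largest rise among the abundant members. Slc25a20 stood at 49.7, 27.4 and 46.3 CPM in TN WT, 46.9, 58.2 and 39.9 in TN HIF2α AKO, 261, 325 and 413 in cold WT and 573, 374 and 382 in cold HIF2α AKO. The lowest cold mouse lay far above the highest TN mouse, and within TN WT mouse 2 was the lowest. Slc25a20 was fitted at 3.02 ± 0.28 (SE) in cold against TN in WT (adjusted p = 0.000255) and at 3.20 ± 0.28 (SE) in HIF2α AKO (adjusted p = 0.000117) on the log2 scale, by edgeR. These are 8.09-fold and 9.16-fold changes, called in all 21 fits of each comparison.

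The carriers of di- and tricarboxylates included the most abundant member, and their calls differed. Slc25a1 stood at 774, 256 and 895 CPM in TN WT, 329, 1080.4 and 643 in TN HIF2α AKO, 1015, 981 and 1887 in cold WT and 1745, 1044 and 1157 in cold HIF2α AKO. Slc25a1, the citrate carrier, was low in mouse 2 of TN WT and mouse 1 of TN HIF2α AKO, and mouse 2 of TN HIF2α AKO lay above the lowest cold mouse of its genotype, while in WT each cold mouse was above each TN mouse. Slc25a1 was fitted at 1.01 ± 0.51 (SE) in cold against TN in WT (adjusted p = 0.16) and at 0.94 ± 0.50 (SE) in HIF2α AKO (adjusted p = 0.173) on the log2 scale, by edgeR. The test was not passed in either genotype, with 95% intervals of -0.10 to 2.12 in WT and -0.17 to 2.05 in HIF2α AKO. Slc25a10 stood at 347, 184 and 508 CPM in TN WT, 169.7, 549 and 471 in TN HIF2α AKO, 760.1, 614 and 1138 in cold WT and 833, 713 and 721 in cold HIF2α AKO. The dicarboxylate carrier Slc25a10 was likewise lowest in these 2 TN mice, and its cold and TN groups did not overlap. Slc25a10 was fitted at 1.27 ± 0.44 (SE) in cold against TN in WT (adjusted p = 0.0591) and at 0.93 ± 0.43 (SE) in HIF2α AKO (adjusted p = 0.125) on the log2 scale, by edgeR. Fasn, the fatty acid synthase, stood at 12502, 4364 and 15936 CPM in TN WT, 4280.2, 20790.3 and 16673 in TN HIF2α AKO, 19112, 14166 and 31799.9 in cold WT and 29645, 20904 and 22328 in cold HIF2α AKO. The same 2 TN mice were the lowest for Fasn, and their adipocyte markers summed to 16228 and 22899 CPM, the lowest of their groups, whose part in these spreads was not tested. Leaving out both mice, which was chosen after seeing the data, moved the fitted change of Slc25a1 in WT from 1.01 to 0.62 (log2), and it was not called. Slc25a11 stood at 84.8, 81.2 and 92.7 CPM in TN WT, 71.9, 90.6 and 88.1 in TN HIF2α AKO, 149, 152 and 173 in cold WT and 217, 170.0 and 171 in cold HIF2α AKO. Slc25a11, the 2-oxoglutarate carrier of the malate-aspartate shuttle, varied little at TN and was higher in each cold mouse. Slc25a11 was fitted at 0.87 ± 0.13 (SE) in cold against TN in WT (adjusted p = 0.0016) and at 1.16 ± 0.13 (SE) in HIF2α AKO (adjusted p = 0.000308) on the log2 scale, by edgeR. Slc25a21, the oxoadipate carrier, had 1 to 10 counts per library and was not tested.

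The aspartate and glutamate carriers moved apart. The glutamate carrier Slc25a22 rose in both genotypes, while the aspartate/glutamate carriers of the malate-aspartate shuttle, Slc25a12 and Slc25a13, were fitted lower and were not called by edgeR. In HIF2α AKO, DESeq2 called Slc25a13 lower, and limma voom with sample quality weights called both lower. Slc25a22 stood at 87.1, 57.8 and 88.9 CPM in TN WT, 99.0, 119.8 and 108 in TN HIF2α AKO, 232, 222 and 298 in cold WT and 271, 236 and 228 in cold HIF2α AKO. All cold mice lay above all TN mice for Slc25a22. Slc25a22 was fitted at 1.68 ± 0.18 (SE) in cold against TN in WT (adjusted p = 0.000453) and at 1.17 ± 0.17 (SE) in HIF2α AKO (adjusted p = 0.00117) on the log2 scale, by edgeR. Slc25a12 was fitted at -0.28 ± 0.17 (SE) in WT (adjusted p = 0.24) and -0.42 ± 0.17 (SE) in HIF2α AKO (adjusted p = 0.0876) by edgeR. Slc25a13 stood at 2.95, 3.39 and 3.21 CPM in TN WT, 2.92, 1.98 and 3.11 in TN HIF2α AKO, 1.88, 3.08 and 1.85 in cold WT and 1.40, 1.93 and 1.56 in cold HIF2α AKO. For Slc25a13 the groups overlapped in WT, and in HIF2α AKO each cold mouse was below each TN mouse. Slc25a13 was fitted at -0.49 ± 0.25 (SE) in cold against TN in WT (adjusted p = 0.172) and at -0.70 ± 0.26 (SE) in HIF2α AKO (adjusted p = 0.063) on the log2 scale, by edgeR. The second glutamate carrier, Slc25a18, had 4 to 28 counts per library, with fitted changes of -0.02 ± 0.51 (SE) in WT and -0.21 ± 0.53 (SE) in HIF2α AKO and no call.

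Of 6 tested carriers of other amino acids and glutathione, 3 were called higher in both genotypes and 0 lower by edgeR. These were Slc25a39, Slc25a44 and Slc25a15, and the other 3, Slc25a29, Slc25a38 and Slc25a40, had fitted changes between -0.01 and 0.20. Slc25a39 stood at 120.4, 79.2 and 144 CPM in TN WT, 98.8, 156 and 122 in TN HIF2α AKO, 323, 365 and 512 in cold WT and 573, 387 and 433 in cold HIF2α AKO. Slc25a39, which imports glutathione into the matrix, was higher in all cold mice than in all TN mice. Slc25a39 was fitted at 1.81 ± 0.27 (SE) in cold against TN in WT (adjusted p = 0.00166) and at 1.89 ± 0.27 (SE) in HIF2α AKO (adjusted p = 0.000886) on the log2 scale, by edgeR. Slc25a44 stood at 52.3, 39.0 and 67.1 CPM in TN WT, 55.6, 79.8 and 82.6 in TN HIF2α AKO, 106, 96.8 and 176 in cold WT and 168, 145 and 143 in cold HIF2α AKO. Slc25a44, a carrier of branched-chain amino acids described in brown fat, was also without overlap between TN and cold. Slc25a44 was fitted at 1.26 ± 0.25 (SE) in cold against TN in WT (adjusted p = 0.00717) and at 1.06 ± 0.25 (SE) in HIF2α AKO (adjusted p = 0.0132) on the log2 scale, by edgeR. In HIF2α AKO the call was lost without mouse 1 of TN HIF2α AKO or mouse 1 of cold HIF2α AKO, where its adjusted p reached at most 0.0591. Slc25a15, the ornithine carrier, was fitted at 0.62 ± 0.15 (SE) in WT (adjusted p = 0.0168) and 0.82 ± 0.15 (SE) in HIF2α AKO (adjusted p = 0.00395) by edgeR, and its call in WT was lost without mouse 1 or 2 of TN WT or mouse 3 of cold WT. Slc25a38, the glycine carrier of haem synthesis, lay between 20.6 and 24.9 CPM in all mice, and its change of 0.04 ± 0.09 (SE) in WT had a 95% interval of -0.17 to 0.24. Slc25a2, an ornithine carrier, had 2 to 8 counts per library and was not tested.

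Carriers of cofactors and nucleotides gave the broadest rise by count. Of 9 tested members of this group, 8 were called higher in WT and 7 in HIF2α AKO, with 0 called lower in either by edgeR, and the medians were 1.10 and 1.05 on the log2 scale. Slc25a36 was the member called in neither. Slc25a42 stood at 28.2, 22.9 and 31.0 CPM in TN WT, 30.2, 39.6 and 31.7 in TN HIF2α AKO, 106, 191 and 159 in cold WT and 259, 154 and 226 in cold HIF2α AKO. Slc25a42, which carries coenzyme A into the matrix, separated the cold mice from the TN mice, with mouse 1 the lowest of cold WT and mouse 2 the lowest of cold HIF2α AKO. Slc25a42 was fitted at 2.47 ± 0.25 (SE) in cold against TN in WT (adjusted p = 0.000397) and at 2.65 ± 0.25 (SE) in HIF2α AKO (adjusted p = 0.000154) on the log2 scale, by edgeR. Slc25a33 stood at 5.93, 4.80 and 6.99 CPM in TN WT, 5.41, 6.28 and 7.63 in TN HIF2α AKO, 23.4, 31.7 and 34.9 in cold WT and 44.0, 29.2 and 29.5 in cold HIF2α AKO. Slc25a33, a carrier of pyrimidine nucleotides, lay at 4.80 to 7.63 CPM at TN and at 23.4 to 44.0 CPM in cold. Slc25a33 was fitted at 2.34 ± 0.22 (SE) in cold against TN in WT (adjusted p = 0.000298) and at 2.41 ± 0.22 (SE) in HIF2α AKO (adjusted p = 0.000154) on the log2 scale, by edgeR.

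Slc25a51 stood at 117, 95.6 and 115 CPM in TN WT, 116, 146 and 123 in TN HIF2α AKO, 308, 331 and 470.0 in cold WT and 585, 393 and 391 in cold HIF2α AKO. Slc25a51, the mitochondrial NAD carrier, was without overlap between TN and cold in both genotypes. Slc25a51 was fitted at 1.76 ± 0.20 (SE) in cold against TN in WT (adjusted p = 0.000615) and at 1.83 ± 0.20 (SE) in HIF2α AKO (adjusted p = 0.000309) on the log2 scale, by edgeR. Slc25a17 stood at 41.7, 36.0 and 46.3 CPM in TN WT, 36.1, 43.5 and 38.0 in TN HIF2α AKO, 104, 118 and 139.6 in cold WT and 191, 131 and 133 in cold HIF2α AKO. Slc25a17, a carrier of the peroxisomal membrane for coenzyme A, FAD and NAD, was also higher in all cold mice. Slc25a17 was fitted at 1.54 ± 0.17 (SE) in cold against TN in WT (adjusted p = 0.00053) and at 1.95 ± 0.17 (SE) in HIF2α AKO (adjusted p = 0.000117) on the log2 scale, by edgeR. The coenzyme A carrier Slc25a16 was fitted at 1.10 ± 0.20 (SE) in WT. Slc25a26, which carries S-adenosylmethionine, was called in WT (0.84 ± 0.23 (SE), adjusted p = 0.0252) and not in HIF2α AKO (0.54 ± 0.23 (SE), adjusted p = 0.0908) by edgeR. Slc25a32, the folate and FAD carrier, was fitted at 0.56 ± 0.15 (SE) in WT and 0.60 ± 0.15 (SE) in HIF2α AKO, the smallest called rises of the group. The calls of Slc25a26 and Slc25a32 in WT were lost without mouse 1 of TN WT, mouse 2 of TN WT or mouse 3 of cold WT, and that of Slc25a32 also without mouse 2 of cold WT. In HIF2α AKO the calls of Slc25a16 and Slc25a32 were lost without mouse 1 of cold HIF2α AKO or mouse 1 of TN HIF2α AKO. The second pyrimidine nucleotide carrier, Slc25a36, was fitted at 0.11 ± 0.10 (SE) in WT, with a 95% interval of -0.12 to 0.34.

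**Figure D2:**
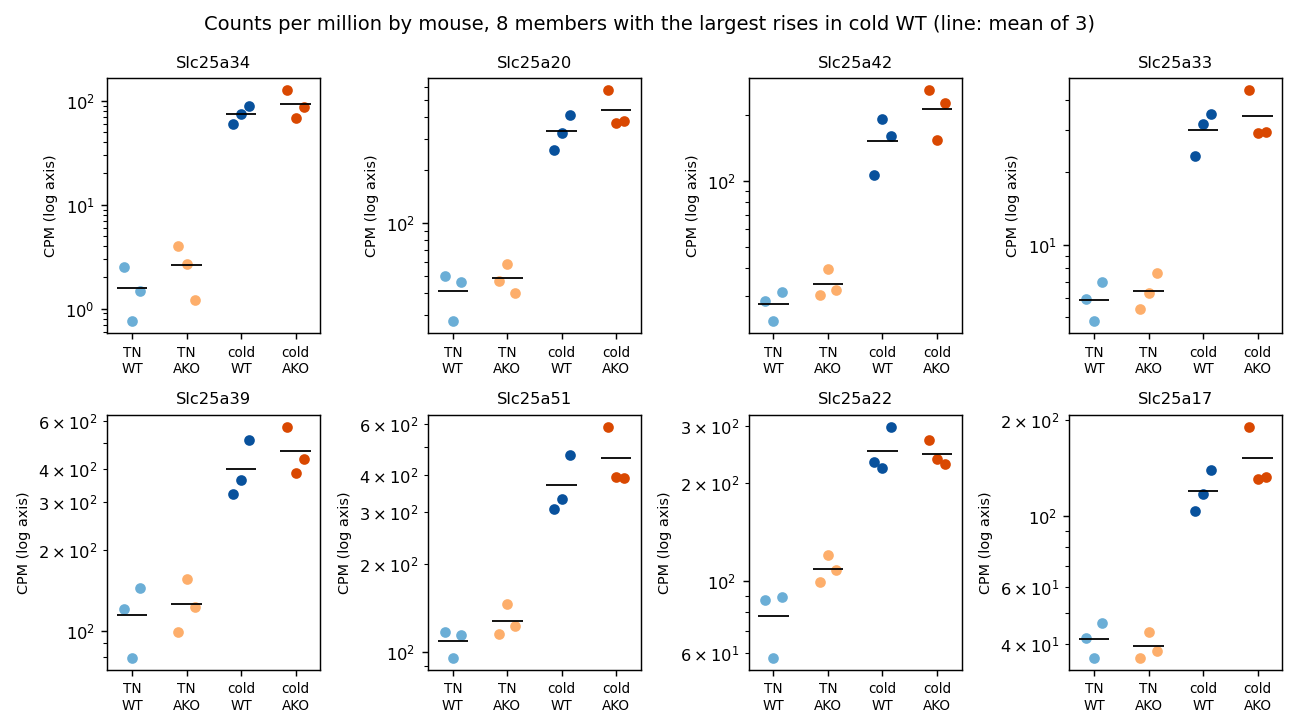
CPM by mouse (vertical axes, log scale) in the 4 groups for the 8 members with the largest rises in cold WT, each point 1 mouse and each line the mean of 3. In all panels the 6 cold mice lie above the 6 TN mice.

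The mitoferrins, which bring iron into the matrix, were fitted in opposite directions. Slc25a37 stood at 75.6, 84.1 and 63.6 CPM in TN WT, 93.9, 71.2 and 71.8 in TN HIF2α AKO, 64.3, 62.3 and 45.9 in cold WT and 47.0, 59.1 and 54.0 in cold HIF2α AKO. Slc25a37 was lower in each cold mouse than in each TN mouse of HIF2α AKO, and mouse 3 of TN WT overlapped with cold WT. Slc25a37 was fitted at -0.37 ± 0.16 (SE) in cold against TN in WT (adjusted p = 0.117) and at -0.57 ± 0.16 (SE) in HIF2α AKO (adjusted p = 0.0285) on the log2 scale, by edgeR. The call in HIF2α AKO was lost without mouse 1 of TN HIF2α AKO, mouse 1 of cold HIF2α AKO or mouse 3 of cold HIF2α AKO. Slc25a28 stood at 46.6, 44.6 and 52.1 CPM in TN WT, 41.2, 47.1 and 46.9 in TN HIF2α AKO, 56.9, 56.5 and 51.5 in cold WT and 61.0, 58.3 and 57.5 in cold HIF2α AKO. The groups of Slc25a28 overlapped in WT and did not in HIF2α AKO. Slc25a28 was fitted at 0.20 ± 0.09 (SE) in cold against TN in WT (adjusted p = 0.107) and at 0.39 ± 0.09 (SE) in HIF2α AKO (adjusted p = 0.0096) on the log2 scale, by edgeR. Slc25a37 is mitoferrin 1, which serves red cell precursors, and Slc25a28 is mitoferrin 2, which is broadly expressed.

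The uncoupling-protein-like members Slc25a14, Slc25a27 and Slc25a30 were not called in any comparison by edgeR, with fitted changes between -0.34 and 0.07 in cold against TN. At an unadjusted p under 0.05, 1 of them passed in WT. They stood at 2.73 to 18.9 CPM in all mice. Ucp1 itself rose from 0.204 to 3.85 CPM at TN to 2171 to 5897 CPM in cold, and Ucp3 was called higher in both genotypes, at 2.71 in WT and 2.78 in HIF2α AKO, while Ucp2 was not (-0.12 and -0.36 on the log2 scale). Slc25a46, which lies in the outer membrane and takes part in mitochondrial dynamics, rose by 0.87 ± 0.14 (SE) in WT (adjusted p = 0.0027) and 1.02 ± 0.14 (SE) in HIF2α AKO (adjusted p = 0.000847) by edgeR.

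Among 7 members whose substrate was taken as unsettled when the groups were made, Slc25a34 had the largest rise of all members and the others moved in both directions. Slc25a34 stood at 2.52, 0.754 and 1.47 CPM in TN WT, 3.97, 2.70 and 1.20 in TN HIF2α AKO, 60.2, 74.0 and 88.8 in cold WT and 127, 68.1 and 86.7 in cold HIF2α AKO. Slc25a34 was low at TN, with 22 counts in the lowest mouse, and the cold mice lay at 60.2 to 127 CPM. Slc25a34 was fitted at 5.51 ± 0.47 (SE) in cold against TN in WT (adjusted p = 0.000139) and at 5.17 ± 0.46 (SE) in HIF2α AKO (adjusted p = 0.000119) on the log2 scale, by edgeR. These are 45.7-fold and 35.9-fold changes, called in all 21 fits of each comparison. Mouse 2 of TN HIF2α AKO, which had the most muscle transcripts, stood at 2.70 CPM, within the range of its group. Slc25a48 stood at 0.789, 0.274 and 0.853 CPM in TN WT, 0.0779, 1.26 and 1.91 in TN HIF2α AKO, 0.895, 2.18 and 2.37 in cold WT and 5.76, 4.06 and 4.65 in cold HIF2α AKO. Slc25a48 was low in all mice, and mouse 1 of TN HIF2α AKO, at 2 counts, was the lowest. Slc25a48 was fitted at 1.49 ± 0.72 (SE) in cold against TN in WT (adjusted p = 0.148) and at 2.14 ± 0.69 (SE) in HIF2α AKO (adjusted p = 0.0424) on the log2 scale, by edgeR. Its call in HIF2α AKO was lost without mouse 1 of TN WT, mouse 1 or 2 of TN HIF2α AKO, mouse 2 of cold WT or any mouse of cold HIF2α AKO.

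Slc25a35 stood at 43.2, 22.5 and 57.7 CPM in TN WT, 22.5, 61.9 and 53.9 in TN HIF2α AKO, 68.9, 78.4 and 109 in cold WT and 116, 90.0 and 85.4 in cold HIF2α AKO. For Slc25a35, again, mouse 2 of TN WT and mouse 1 of TN HIF2α AKO were the lowest, and the groups did not overlap. Slc25a35 was fitted at 1.06 ± 0.38 (SE) in cold against TN in WT (adjusted p = 0.0708) and at 1.07 ± 0.38 (SE) in HIF2α AKO (adjusted p = 0.0585) on the log2 scale, by edgeR. Part of the reads of Slc25a35 may belong to Rangrf, which overlaps it on the opposite strand. Slc25a45 was called lower in HIF2α AKO (-0.48 ± 0.12 (SE), adjusted p = 0.0147) and not in WT (-0.34 ± 0.12 (SE), adjusted p = 0.056) by edgeR, and it was called lower in WT by DESeq2. Slc25a53 was called lower in HIF2α AKO (-0.71 ± 0.24 (SE), adjusted p = 0.0468) by edgeR, a call lost also without mouse 1 or 2 of TN WT, mouse 3 of TN HIF2α AKO, mouse 2 of cold WT or mouse 2 or 3 of cold HIF2α AKO. The calls of both were lost without mouse 1 of TN HIF2α AKO or mouse 1 of cold HIF2α AKO. Slc25a43 (6 to 23 counts) and Slc25a47 (63 to 100 counts) were not called, at -0.52 ± 0.38 (SE) and 0.39 ± 0.20 (SE) in WT. The fitted falls of Slc25a24, Slc25a37, Slc25a45 and Slc25a53 lay beside the lower fibroblast and preadipocyte marker sums in cold. Macrophage markers (9 of 10 in the table) summed to 2364 to 2560 CPM in TN HIF2α AKO and 1341 to 1552 CPM in cold HIF2α AKO. In WT they overlapped, at 1485 to 2626 CPM at TN and 1173 to 2326 CPM in cold. The part of any of these cells in the fitted falls was not tested.

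Ratios of related members within each mouse do not depend on how libraries are scaled, and 8 pairs were compared in cold against TN by a two-sided exact permutation test within genotype (400 arrangements, smallest p = 0.005), with Benjamini-Hochberg adjustment over the 8 pairs. Ratios are of counts per exon length. Slc25a5, Slc25a36, Slc25a37 and Slc25a40 have near-identical transcripts of other genes (at least 95% identity over at least 300 bases). Reads shared with those transcripts may be missing from the counts of these 4 members, which bears on levels of ratios and on TPM. The ratio of the pyrimidine nucleotide carriers rose, with Slc25a33/Slc25a36 at 0.574 to 0.744 in TN WT and 2.66 to 3.78 in cold WT. In HIF2α AKO it lay at 0.618 to 0.847 and 3.00 to 4.16. Per exon length Slc25a36 was thus the higher of the pair in all TN mice and Slc25a33 in all cold mice. This order depends on the exon lengths, 1887 bases for Slc25a33 and 9594 for Slc25a36. In CPM Slc25a36 was the higher in every mouse, at 42.7 to 54.8 in cold WT against 23.4 to 34.9 for Slc25a33. The test is of the shift in the ratio and not of the order (exact permutation p = 0.005, the smallest possible, adjusted 0.01). The mitoferrin ratio Slc25a37/Slc25a28 lay at 0.760 to 1.17 at TN and 0.556 to 0.703 in cold in WT, and at 0.942 to 1.42 and 0.480 to 0.630 in HIF2α AKO (exact permutation p = 0.005, adjusted 0.01). The ratio of Slc25a40 to its paralog Slc25a39 fell by 1.77 on the log2 scale (exact permutation p = 0.005, adjusted 0.01), with 0.0271 to 0.0509 in TN WT and 0.00780 to 0.0120 in cold WT. Slc25a18/Slc25a22 fell by 1.51 on the log2 scale (exact permutation p = 0.005, adjusted 0.01), with few counts of Slc25a18, and Slc25a25/Slc25a24 rose by 0.88 (exact permutation p = 0.01, adjusted 0.016). For Slc25a25/Slc25a24 the WT groups overlapped, at 0.521 to 1.24 at TN and 1.16 to 2.16 in cold. In HIF2α AKO this ratio lay at 0.867 to 1.20 at TN and 1.45 to 1.81 in cold. Slc25a5/Slc25a4, the ratio of the ADP/ATP carriers, lay between 2.70 and 3.79 in all mice and did not pass the test (mean difference 0.09 on the log2 scale, exact permutation p = 0.365). Slc25a13/Slc25a12 (fell by 0.25, exact permutation p = 0.1) and Slc25a10/Slc25a11 (0.21, exact permutation p = 0.5) did not pass it either.

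**Figure D3:**
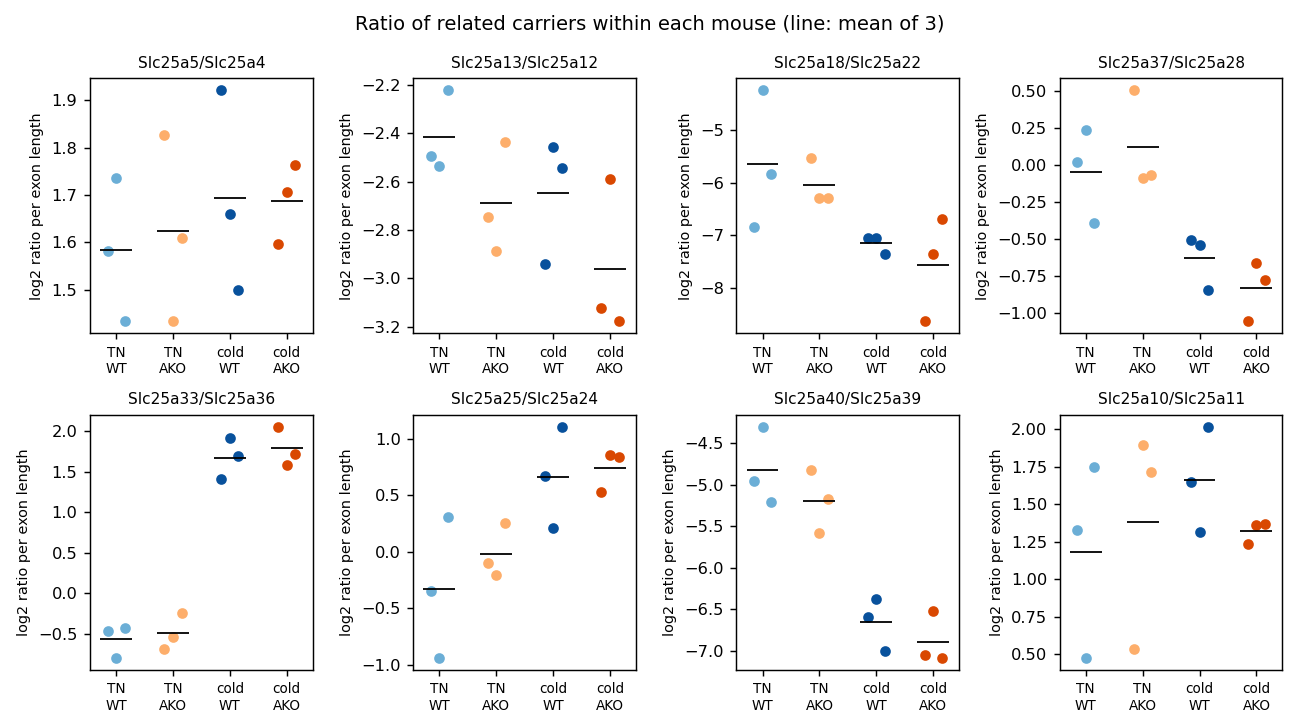
Log2 ratio of related carriers per exon length (vertical axes) in each mouse of the 4 groups, with a line at the mean of 3. The ratios of Slc25a33 to Slc25a36 and of Slc25a40 to Slc25a39 separate all cold mice from all TN mice in opposite directions, and the ratio of Slc25a5 to Slc25a4 overlaps.

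Levels of different members were compared as TPM, which divide counts by exon length before scaling. The 47 members summed to 3235 to 4992 TPM in TN WT, 3359.8 to 5387 in TN HIF2α AKO, 6596 to 8458 in cold WT and 7176 to 9175 in cold HIF2α AKO. Each cold mouse lay above each TN mouse, and the means differed 1.73-fold in WT and 1.79-fold in HIF2α AKO. On the TPM scale the median tested gene fell by 0.37 in WT and by 0.35 in HIF2α AKO (log2), and the sums in CPM after scaling by the trimmed mean of M-values (TMM) differed 2.18-fold and 2.17-fold. Slc25a1 and Slc25a5 were first and second in every group mean, with 27.0 ± 9.15% and 19.7 ± 4.13% (SD, n = 3) of the summed TPM in TN WT and 25.9 ± 4.44% and 19.1 ± 3.25% in cold WT. Slc25a10 followed in each. These neighbours were not in this order in every mouse, since Slc25a5 exceeded Slc25a1 in the 2 TN mice low in Slc25a1. The share of Slc25a20 was 0.746 to 0.929% in TN WT and 2.68 to 3.45% in cold WT, that of Slc25a34 0.0393 to 0.0854% and 1.12 to 1.42%, and that of Slc25a39 3.95 to 4.07% and 5.85 to 6.79%. For Slc25a37 the share was 0.824 to 1.94% in TN WT and 0.271 to 0.532% in cold WT.

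**Figure D4:**
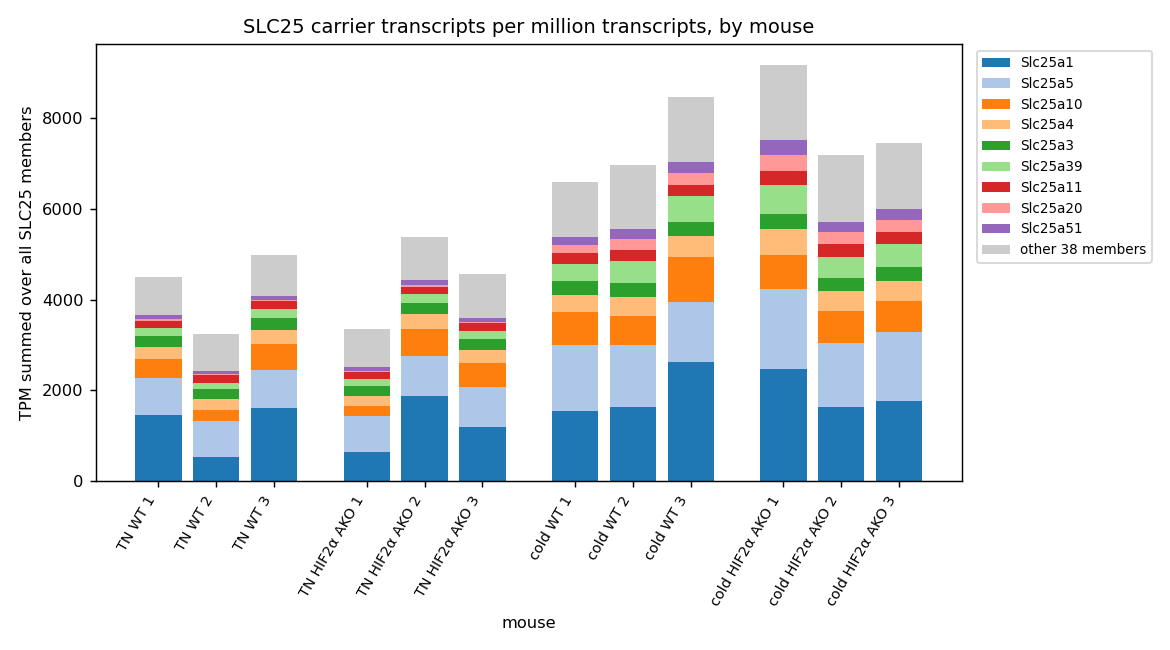
TPM summed over the 47 members (vertical axis) in each of the 12 mice, stacked by member. The bars of the cold mice are higher than those of the TN mice, and Slc25a1 is small in mouse 2 of TN WT and mouse 1 of TN HIF2α AKO.

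Other mitochondrial membrane genes were set beside the members. Of 10 tested genes of the route that carries these proteins through the outer membrane into the inner membrane (translocases and small chaperones), 9 were called higher and 0 lower in each genotype by edgeR, with medians of 1.08 in WT and 1.25 in HIF2α AKO (log2), and Agk was the gene not called. Among 16 tested transporters of other families (pyruvate carrier, porins, sideroflexins, calcium uniporter, ABC transporters), 10 were called higher in WT and 12 in HIF2α AKO and 0 lower, with medians of 0.77 and 0.84. All 35 tested complex I subunits were called higher in both, with medians of 1.38 and 1.59. Of the 5 genes with the carrier fold and other symbols, Ucp1, Ucp3 and Mtch2 were called higher in both genotypes and 0 were called lower. The background shares given for all genes apply to these lists, and no test compared them with the members.

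Between genotypes no member passed an adjusted p under 0.05. For cold mice, 0 of 42 members were called in HIF2α AKO against WT by edgeR, DESeq2 or limma voom with sample quality weights, beside 0.00653% of all genes by edgeR. At an unadjusted p under 0.05 edgeR gave 0 members, beside 2.95% of all genes, DESeq2 gave 2 (Slc25a42 and Slc25a48), beside 3.40%, and limma voom 5, beside 7.69%, all higher. The median was 0.06 over the members and -0.02 over all genes, and 25 of 42 were fitted higher. The thresholds of the study's methods (p under 0.15 without adjustment and a log2 change beyond 0.2 in either direction) were applied to the edgeR fit, while the authors used DESeq2. By these thresholds 7 members were higher and 1 was lower, beside 4.74% and 4.24% of all genes. The groups did not overlap for 3 members, all higher in HIF2α AKO (among them Slc25a28 and Slc25a48), and for 0 lower, beside 3.80% and 3.73% of all genes. The 5 members with the smallest unadjusted p in cold were Slc25a48 (1.40 ± 0.67 (SE), 95% interval -0.08 to 2.88), Slc25a42 (0.48 ± 0.23 (SE)), Slc25a17 (0.33 ± 0.17 (SE)), Slc25a11 (0.24 ± 0.13 (SE)) and Slc25a13 (-0.47 ± 0.26 (SE)) on the log2 scale, each with an adjusted p of 1 by edgeR. For Slc25a48 all 3 cold HIF2α AKO mice lay above all 3 cold WT mice, and for the other 4 the groups overlapped. Mouse 1 of cold HIF2α AKO, with 1361 CPM of muscle markers, was the highest of its group for Slc25a48, Slc25a42, Slc25a17 and Slc25a11, and the part of muscle transcripts in this was not tested.

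In TN HIF2α AKO against TN WT 0 members were called at an adjusted p under 0.05 by any of the 3 tools, beside 0.00653% of all genes by edgeR. At an unadjusted p under 0.05 there was 1 member by edgeR and by DESeq2, Slc25a22, beside 2.91% and 3.35% of all genes, and there were 4 by limma voom, beside 9.62%. Slc25a22 was higher in the 3 TN HIF2α AKO mice (99.0 to 119.8 CPM) than in the 3 TN WT mice (57.8 to 88.9 CPM), at 0.48 ± 0.17 (SE) with an adjusted p of 0.999. The groups did not overlap for 2 members higher and 2 lower, beside 3.69% and 4.00% of all genes. The interaction of genotype and temperature gave 0 members at an adjusted p under 0.05 by each tool, beside 0% of all genes, and at an unadjusted p under 0.05 edgeR and DESeq2 gave 0, beside 2.14% and 2.48% of all genes, and limma voom 1 (Slc25a17), beside 5.31%. The smallest unadjusted p was that of Slc25a22, with a difference between the temperature responses of -0.51 ± 0.24 (SE) and a 95% interval of -1.05 to 0.02. The cold responses were therefore not shown to differ between genotypes for any member, including those called in 1 genotype alone.

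**Figure D5:**
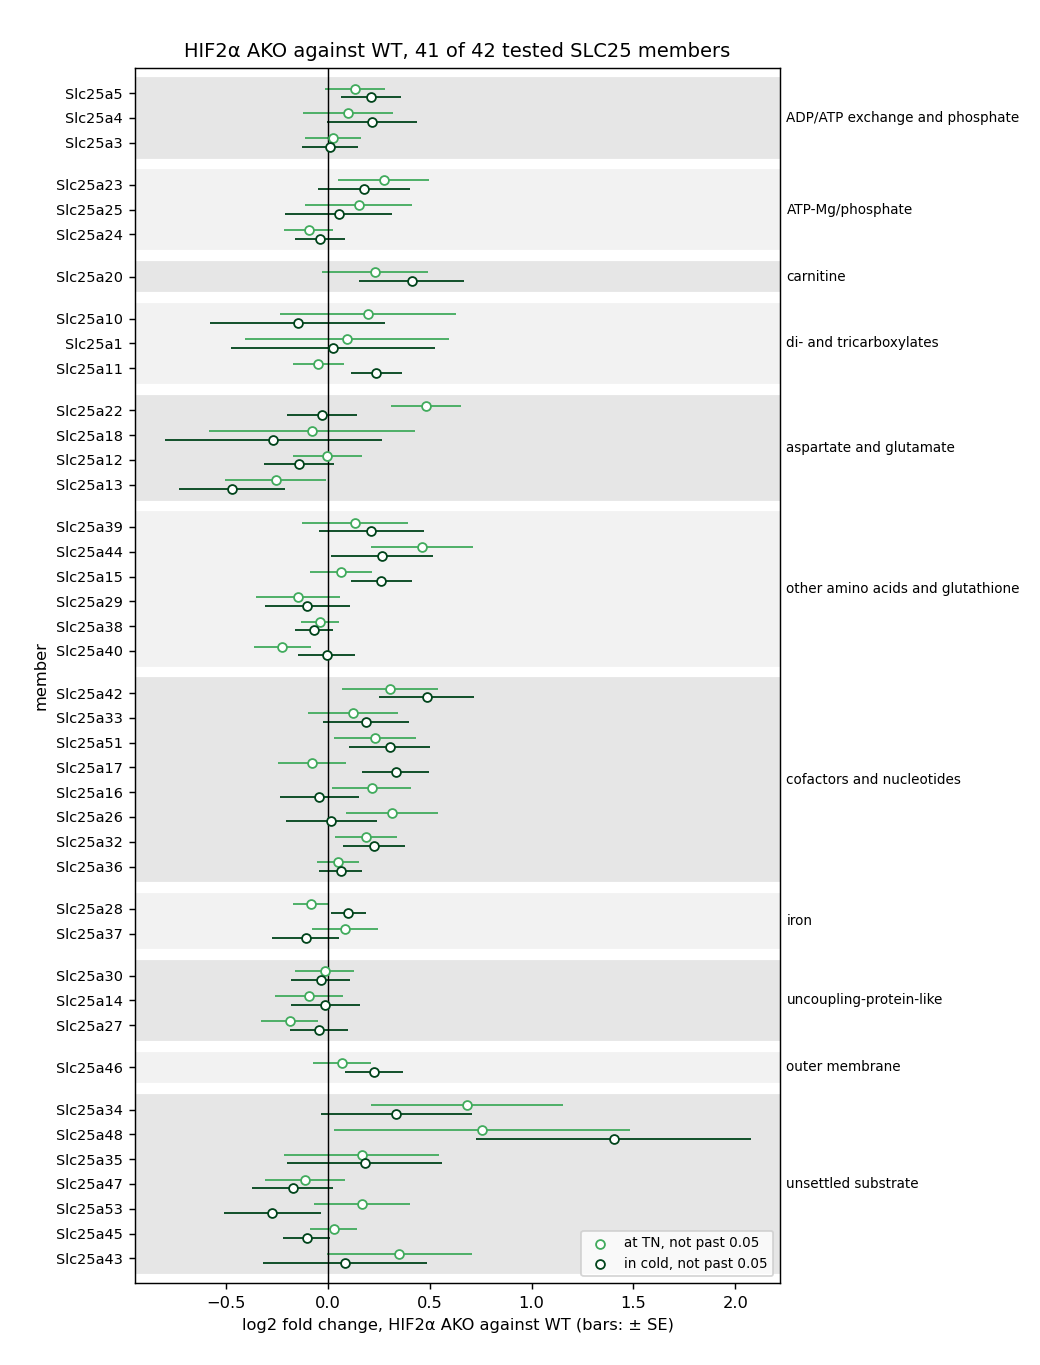
Log2 fold change of HIF2α AKO against WT (horizontal axis, bars are SE) for 41 of the 42 tested members (vertical axis) at TN (light green) and in cold (dark green). No point is filled, since no member passed an adjusted p under 0.05, and Slc25a48 in cold lies farthest from 0 at 1.40.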

How the data were processed

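Reads of 12 libraries were trimmed by the authors with Trim Galore 0.4.4, aligned with STAR 2.6.1d to GRCm38 and counted per gene with HTSeq 0.13.5. The values deposited are whole-number counts without normalization, and the tables of single libraries equalled the table of the series. The annotation and the strand setting of the counting are not given in the sources used here. Tallies of reads outside genes, 21.9 to 27.0% of the reads listed, were left out, and all columns were matched to a library.

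Counts were analysed with R 4.3.3 and edgeR 4.0.16. Genes were kept by filterByExpr (minimum count 10, minimum total 15), scaled by TMM and fitted by quasi-likelihood with the 4 groups as the only factor, and p-values were adjusted by Benjamini-Hochberg over the 15306 genes tested, with a limit of 0.05. Intervals of 95% use the SE and the degrees of freedom of this fit. DESeq2 1.42.0 (run by the authors as 1.30.0) and limma 3.58.1 were run as alternatives, with other scaling, no filter, the libraries of 2 groups only, the replicate number in the model and each library left out. The code was tested on simulated data. CPM per mouse are TMM-scaled. TPM used exon lengths of GENCODE M21, found for 92.8% of genes, which held at least 96.0% of the counts. Ratios of members used a pseudocount of 0.5. With 3 mice against 3, an exact permutation test cannot go below p = 0.1, so single genes were tested in the fit across all genes. Deviations of libraries of 1 number from their group means correlated at -0.43 to 0.39, above 0.1 in 5 of 18 pairs. Numbers were not used to pair the mice, although with 3 libraries per group these correlations cannot settle whether they do. No libraries were duplicates.

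Values in every mouse are given for members by rule: up to 8 rises and 8 falls called in cold WT against TN WT with a mean count of at least 50, up to 5 members called in another comparison, the 5 smallest p in cold HIF2α AKO against cold WT, and Slc25a1, Slc25a3, Slc25a4, Slc25a5, Slc25a20, Slc25a31 and Slc25a44. Slc25a10, Slc25a28, Slc25a35 and Slc25a37, and Fasn and Epas1, were added after their values were seen. The values of 1 tested member are not reported here, and it is included in the counts, medians and sums. The members and lists were chosen with earlier results of these data known.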

Additional observations from a re-analysis of the deposited data

How the results depend on the processing

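Rises called in cold stayed within 1.5 times their number in each fit, at 14 to 23 members in WT and 15 to 23 in HIF2α AKO when 1 mouse was left out. Falls were less stable. In WT, where 0 members were called lower, DESeq2 size factors, no filter on low counts and DESeq2 each gave 2, limma voom with quality weights gave 1, the replicate block gave 1, and leaving out 1 mouse gave 0 to 3. In HIF2α AKO, where 3 were called lower, DESeq2 gave 4, limma voom gave 5, no filter on low counts gave 2 and leaving out 1 mouse gave 0 to 4. Leaving out the 3 mice with muscle or epithelial transcripts gave 0 and leaving out the 2 TN mice lowest in Fasn gave 1 (these 2 fits were chosen after seeing the data). All calls in HIF2α AKO together numbered 15 to 26 without 1 mouse. Apart from DESeq2 in WT, the shares of all genes called in these other fits are not given, and the causes were not tested. The replicate block (numbers are not known to pair the mice) gave 19 higher in WT and 20 in HIF2α AKO, losing Slc25a32 in WT and Slc25a23 in HIF2α AKO, and the fit of WT libraries alone lost Slc25a23 and Slc25a26.

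At the thresholds of the study's methods, applied to the edgeR fit, 33 members were called in WT (6 lower), beside 52.5% of all genes (25.7% lower). In HIF2α AKO 7 were lower, beside 28.9%. Between genotypes 8 differed in cold and 3 at TN, and 3 were counted for the interaction, beside 8.98%, 8.63% and 8.81% of all genes. The log2 ratio of the summed carriers was 0.79 in WT and 0.84 in HIF2α AKO as TPM, and 1.12 in both as TMM-scaled CPM. The log2 ratio of Slc25a13 to Slc25a12 changed in cold by -0.34 to -0.18 without 1 mouse and passed the test without mouse 2 of cold HIF2α AKO, and that of Slc25a10 to Slc25a11 by -0.0018 to 0.35, the lowest without mouse 1 of TN HIF2α AKO. When 1 mouse was left out, the fitted change of every member called in cold against TN kept its sign. Among members not called the sign reversed for some, such as Slc25a18 in WT (-0.41 to 0.61) and Slc25a36 in WT (-0.01 to 0.17).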
